A study of Mus musculus with 8 samples.

Results

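Histone-modifying enzymes and CHD chromatin remodellers were examined as places where PRDM16 antibody enrichment was called in the embryonic mouse cortex. The genes were chosen by symbol: protein-coding genes beginning with Kdm, Kmt, Setd, Hdac, Sirt, Kat followed by 2, 5, 6, 7 or 8, or Chd followed by a digit. This gave 71 of the 21887 protein-coding genes of the RefSeq GRCm38.p6 table, with 18 Kdm, 8 Kmt, 10 Setd, 11 Hdac, 7 Kat, 7 Sirt and 10 Chd genes. A region, meaning a peak of a deposited list, was assigned to a gene when its summit lay in the gene, or within 100 kb of the nearer end with no protein-coding gene closer. Regions were called gene-end regions when the summit was no more than 1 kb from the first or last annotated base.

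The conditional knockout (cKO) libraries came from Emx1Ires-Cre; Prdm16flox/flox embryos and the WT libraries from Prdm16 flox/flox embryos whose genotype label names no Cre, all at E15.5 and from whole cortex. Both genotypes therefore carried floxed Prdm16 alleles, and each genotype had 2 ChIP libraries (n = 2). Cre from the Emx1 locus acts in the dorsal telencephalic lineage, so cortical cells of other origins keep their Prdm16 alleles in the cKO. The labels do not say how many embryos went into a library. The cKO lists held 4553 and 3088 regions in replicates 1 and 2, and the WT lists held 13852 and 26652. The names of the peaks carry 1 library identifier in both WT lists and another in both cKO lists, so genotype and whatever that identifier marks cannot be told apart. Peak lists do not measure expression, and neither the loss of Prdm16 nor the tissue was checked here.

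Histone-modifying enzymes add or remove small groups on histone tails. Methyltransferases of the Kmt and Setd genes and acetyltransferases of the Kat genes write marks, while demethylases of the Kdm genes and deacetylases of the Hdac and Sirt genes erase them. CHD proteins use ATP to move or exchange nucleosomes, and several are tied to human neurodevelopmental disorders. PRDM16 is a PR-domain zinc-finger protein made in radial glia, the stem cells that give rise to cortical neurons, and works through such enzymes in other tissues: its known partners include the H3K9 methyltransferase EHMT1 and the CtBP corepressors. A few members act mainly outside chromatin, among them Setd3, which methylates actin, and Sirt3, Sirt4 and Sirt5, which are mitochondrial.

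The deposited cKO lists held fewer regions at these genes than the WT lists. The cKO lists placed 28 and 15 regions at members in replicates 1 and 2, against 61 and 108 in the WT lists. The mean was 21.5 ± 9.19 regions in cKO and 84.5 ± 33.2 in WT (SD, n = 2 each). The genotypes did not overlap, and the two-sided exact permutation p was 0.333, which is the smallest that 2 libraries against 2 allow. The direction depended on list length. When each list was cut to its 3088 most significant regions, cKO replicates 1 and 2 held 17 and 15 regions at members and WT replicates 1 and 2 held 6 and 9. Relative to its own list, the cKO share was the larger: 0.615% and 0.486% of all cKO regions lay at members, against 0.440% and 0.405% of all WT regions (exact permutation p = 0.333). With only peaks of −log10 q of at least 5, the mean shares were 0.409% in cKO and 0.379% in WT and the libraries overlapped (exact permutation p = 1).

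Of the 71 genes, 20 and 13 had at least 1 region in cKO replicates 1 and 2, where 16.4% and 11.8% of all protein-coding genes had one. In WT replicates 1 and 2 the number was 30 and 34 of 71, where 23.6% and 34.5% of all protein-coding genes had one. The genotypes did not overlap in this count (16.5 ± 4.95 members in cKO and 32 ± 2.83 in WT; exact permutation p = 0.333). In the equal-length lists, 15 and 13 members had a region in cKO replicates 1 and 2, and 4 and 7 in WT replicates 1 and 2. The share of all genes with a region was not counted per library in the equal-length lists. Whether members differed from all genes there is therefore not known. In 19 of the 71 genes both cKO lists held fewer regions than either WT list, where 15.7% of all genes did. In 0 of the 71 did both cKO lists hold more, where 1.7% of all genes did.

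A WT-only region is one found in both WT lists that overlaps no region of either cKO list. The members had 32 such regions at 19 of 71 genes (26.8%), where 16.6% of all protein-coding genes had at least 1. The equal-length lists left 4 WT-only regions at 3 members (4.23%), where 4.99% of all genes had one. Without WT replicate 1 there were 95 such regions at 33 members (46.5%), where 32.2% of all genes had one. Without WT replicate 2 there were 55 at 27 members (38.0%), where 21.3% of all genes had one. No test was made against all genes, since long genes collect more regions. The median length of the 71 genes was 44.0 kb, against 17.2 kb for all protein-coding genes. Within the members, the 19 genes with a WT-only region had a median length of 77.8 kb and the 52 without had 36.3 kb. Members held 0.385% of the genome nearest to protein-coding genes and 0.433% of the assigned WT-only regions. Of the remaining 52, 3 genes (Kdm3b, Kmt2c and Setd4) had a region of both lists of a genotype but none that was WT-only, 22 had regions that the other list of the same genotype did not match, and 27 had no region in any of the 4 lists. At least 1 region in any list was thus seen at 44 of 71, where 43.9% of all genes had one.

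**Figure D1:**
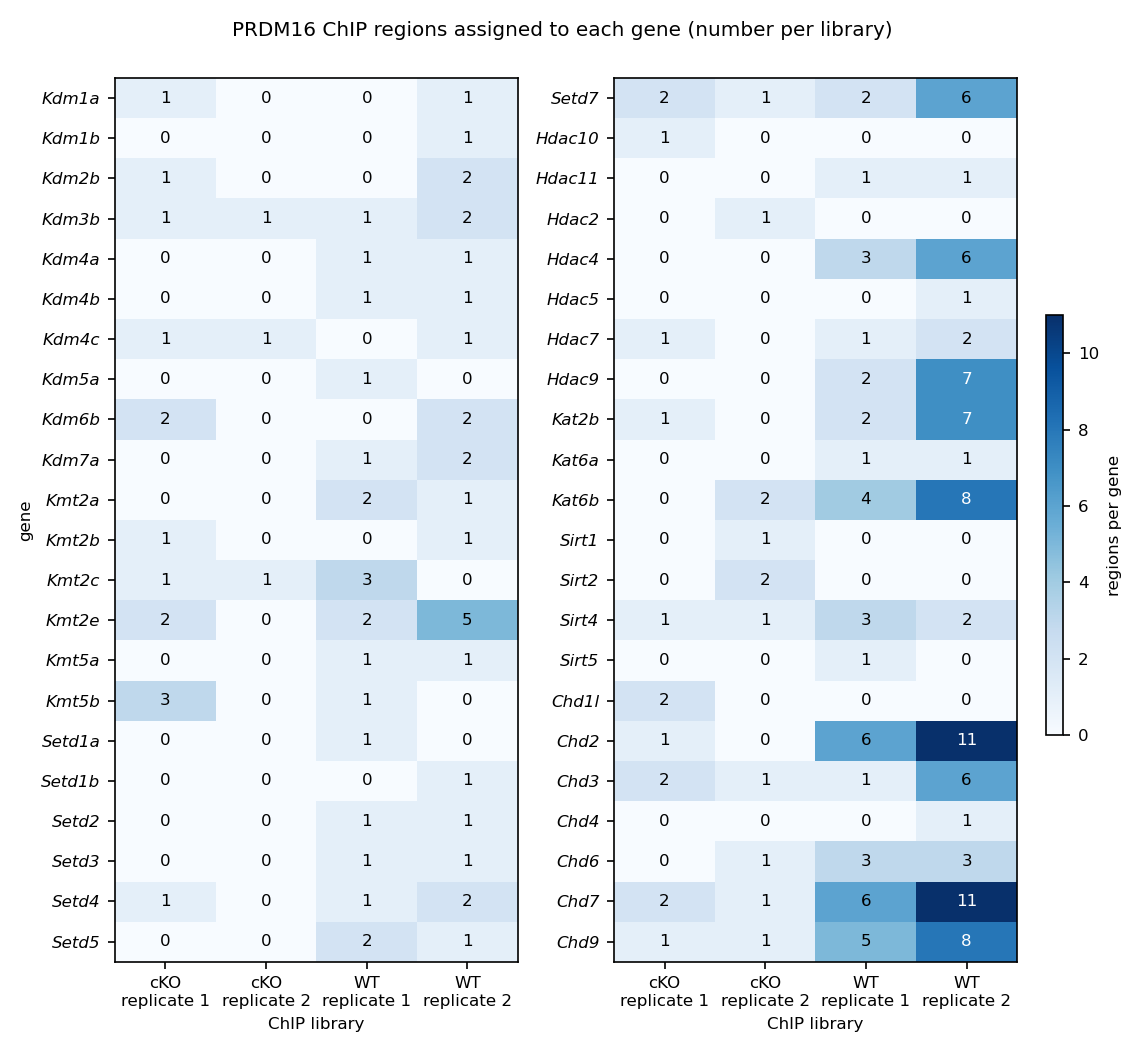
Regions assigned to each of the 44 genes that had at least 1 region in any list. Rows are genes and columns are the 4 ChIP libraries, with the number of regions printed in each cell and shown by the shade. Chd2 and Chd7 reach 11 regions in WT replicate 2, and no gene exceeds 3 in a cKO list.

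The CHD remodeller genes held the most regions of the 7 groups in 3 of the lists and tied with the Sirt genes in cKO replicate 2. They had 8 and 4 regions in cKO replicates 1 and 2, against 21 and 40 in WT replicates 1 and 2. WT-only regions lay at 5 of the 10 genes (Chd2, Chd3, Chd6, Chd7 and Chd9) and numbered 14, where 16.6% of all genes had at least 1. The median stretch of genome nearest to a gene was 139 kb for the Chd genes, against 62.2 kb for the 71 genes and 45.8 kb for all genes. Of the other members of the group, Chd1, Chd5 and Chd8 had no region in any list. Chd4, the main ATPase of the NuRD complex, had 1 region in WT replicate 2 alone. Chd1l went the other way, with 2 regions in cKO replicate 1 alone.

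Chd2, a remodeller gene linked to epilepsy in humans, carried the strongest WT-only region of all 71 genes. Around it the cKO lists held 1 and 0 regions and the WT lists held 6 and 11 in replicates 1 and 2. The strongest, at chr7:73637246-73638409 (mm10), had folds over the local background of 34.9 and 31.4 in WT replicates 1 and 2 (33.2 ± 2.51, SD, n = 2). It lay 96118 bp outside the gene, and the next protein-coding gene, Fam174b, was 102443 bp away. Another at chr7:73583952-73584964 had 25.7 and 21.3 in WT replicates 1 and 2, lay 42590 bp outside the gene and fell inside the non-coding gene Gm30149. The weaker WT-only regions of Chd2 averaged 6.20 ± 0.851 and 4.91 ± 0.137. All 4 WT-only regions of Chd2 lay outside the gene, at 42590 to 96118 bp, so with an assignment limit of 10 kb Chd2 had 0. Another region of both WT lists, at chr7:73618205-73619063, was also in cKO replicate 1, with 3.45-fold enrichment there against 10.2 and 5.28 in WT replicates 1 and 2.

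Chd9 also had a strong distant region, together with weaker ones in the gene. The lists held 1 and 1 regions in the cKO replicates and 5 and 8 in the WT replicates. The region at chr8:90740370-90741994 had 31.7 and 29.1 in WT replicates 1 and 2 (30.4 ± 1.85), and lay 86866 bp outside the gene. The other WT-only regions of Chd9, all 3 in the gene body, averaged 9.26 ± 3.18, 8.62 ± 1.44 and 5.64 ± 0.745 (SD, n = 2). Both cKO lists kept a region at the Chd9 start site, chr8:90828708-90828979, with 5.51 and 3.50 in cKO replicates 1 and 2; WT replicate 2 had 8.22 there and WT replicate 1 called no region.

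Chd7, the gene mutated in CHARGE syndrome in humans, had many regions of modest height. It held 2 and 1 regions in the cKO replicates and 6 and 11 in the WT replicates. Its 3 WT-only regions averaged 7.26 ± 0.824, 6.39 ± 1.34 and 4.87 ± 1.29, the first of them 42726 bp outside the gene. One region in the gene body, chr4:8850444-8850868, was in all 4 lists, with 3.38 and 3.37 in cKO replicates 1 and 2 against 4.96 and 5.34 in WT replicates 1 and 2. The highest Chd7 fold in any list, 9.07, belonged to a region of WT replicate 2 alone. Only 1 of the 3 remained WT-only when peaks were limited to −log10 q of at least 5.

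**Figure D2:**
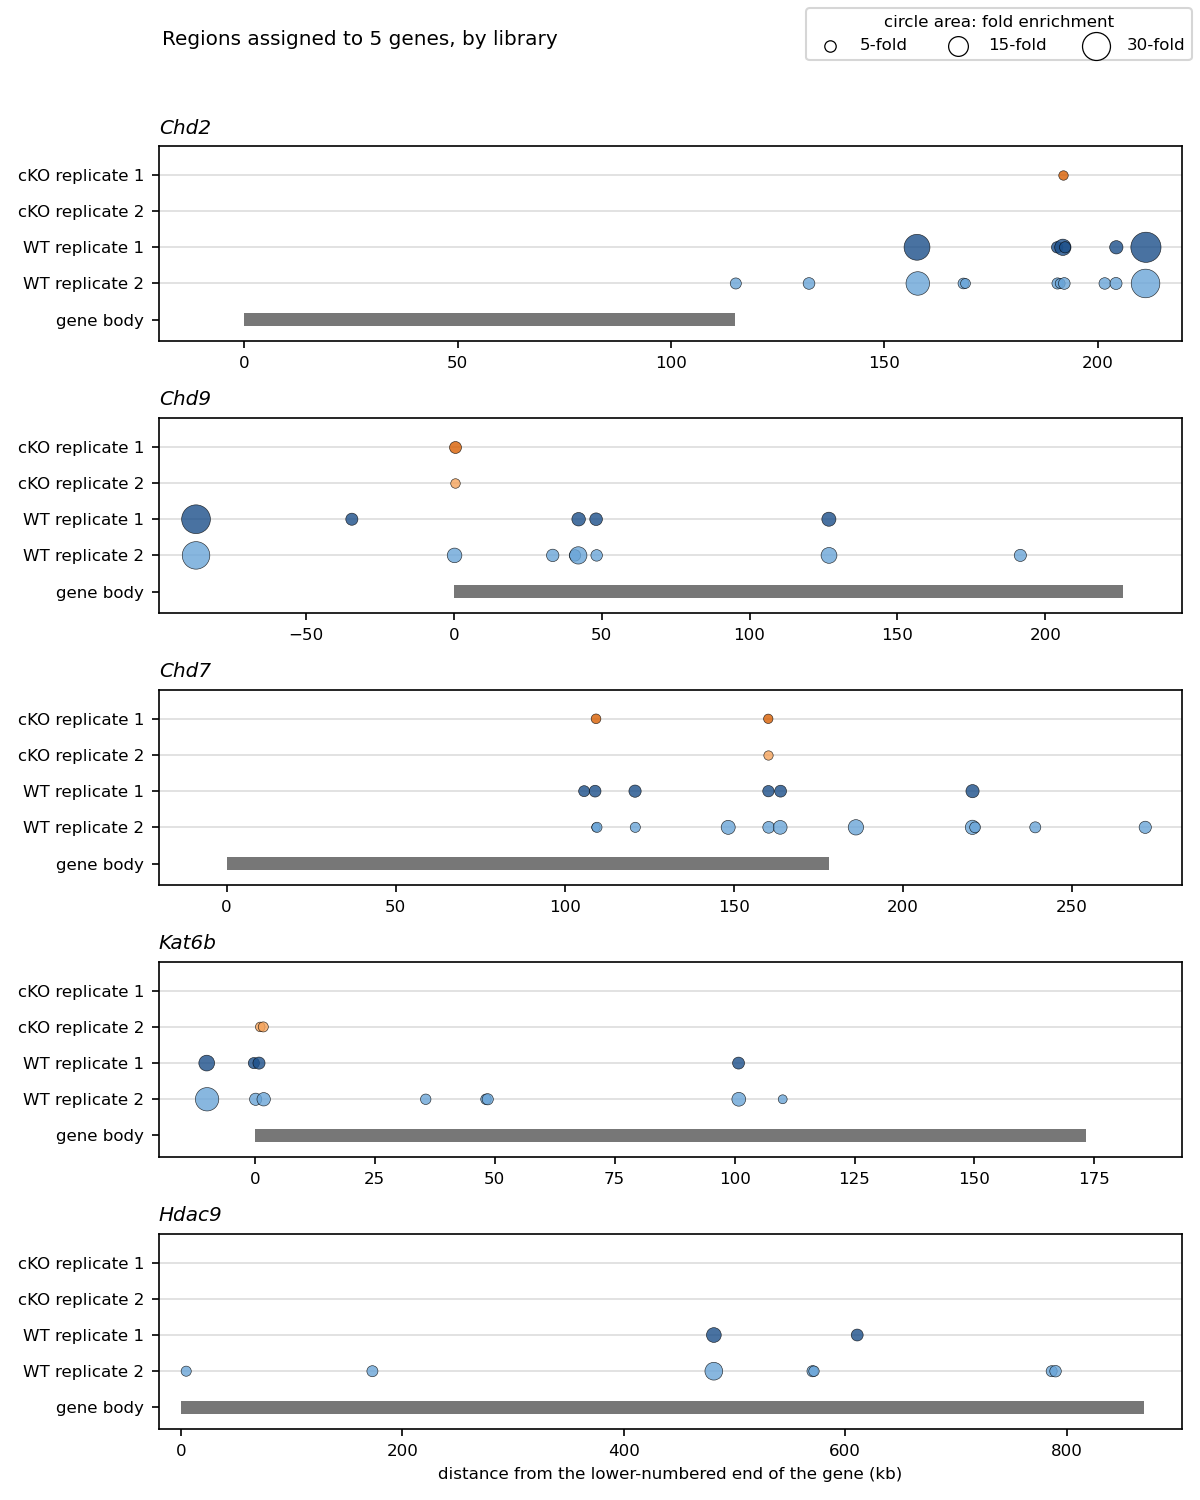
Regions assigned to Chd2, Chd9, Chd7, Kat6b and Hdac9 in the 4 ChIP libraries. The horizontal axis is the distance in kb from the lower-numbered end of the gene, the grey bar is the gene body, and circle area is proportional to the authors' fold enrichment. The largest circles lie outside the bodies of Chd2 and Chd9 in both WT rows, and the cKO rows hold few, small circles.

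Among the writers, acetyltransferase genes of the Kat group had 1 and 2 regions in cKO replicates 1 and 2. In WT replicates 1 and 2 they had 7 and 16. A region in any list was seen at 3 of 7 Kat genes, near the 43.9% of all genes that had one. Kat6b encodes a MYST-family acetyltransferase that is needed for cortical development in the mouse. It had 0 and 2 regions in the cKO replicates and 4 and 8 in the WT replicates. Its strongest region, chr14:21488866-21489632, lay 10104 bp outside the gene with 9.56 and 21.0 in WT replicates 1 and 2 (15.3 ± 8.08), so the replicates differed by more than for Chd2 or Chd9. The other Kat6b WT-only region lay in the body with 6.41 ± 1.31. Both cKO replicate 2 regions of Kat6b lay in the body near the lower-numbered end, at 1119 and 1721 bp from it, and 1 of them overlapped a region of WT replicate 2.

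Kat2b, which encodes the acetyltransferase PCAF, had 1 and 0 regions in the cKO replicates and 2 and 7 in the WT replicates. Its stronger WT-only region, chr17:53596116-53596749 in the gene body, had 5.43 and 12.6 in WT replicates 1 and 2. The cKO replicate 1 region lay at a gene end, 53 bp from a listed start site, at chr17:53566916-53567242, with 4.81-fold enrichment. No other list called that place, although WT replicate 2 had a 7.19-fold region at chr17:53567489-53567954. Kat2a, the paralogue of Kat2b, and Kat5, Kat7 and Kat8 had none.

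Methyltransferase genes were mixed. The Kmt group had 7 and 1 regions in cKO replicates 1 and 2 and 9 and 8 in WT replicates 1 and 2, so the genotypes came closer here than in the Chd group. WT-only regions lay at 3 of 8 Kmt genes (37.5%), where 16.6% of all genes had one, and the median stretch of genome nearest to a gene was 68.3 kb for Kmt genes and 45.8 kb for all genes. Kmt2e, which encodes a reader of H3K4 methylation, had 2 of them, both outside the gene and inside the non-coding gene 5031425E22Rik. The stronger averaged 8.95 ± 3.10 at chr5:23386452-23387128, 46074 bp from Kmt2e and 47312 bp from the next gene, Gm17434. Kmt2a, an H3K4 methyltransferase gene needed for postnatal neurogenesis in the mouse, had 8.30 and 8.01 in WT replicates 1 and 2 at chr9:44875322-44875728 in its body. Neither cKO list had a region at Kmt2a.

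Kmt2c, an H3K4 methyltransferase gene of enhancers, was the 1 member at which the cKO lists shared a region that no WT list held, where 3.43% of all genes had one. It lay at a gene end, chr5:25499499-25499902, 800 bp from a listed start site, with 3.46 and 4.84 in cKO replicates 1 and 2. Both folds were below the medians of the regions assigned to any protein-coding gene in those lists, 4.66 and 4.96. WT replicate 1 had 3 regions in the Kmt2c body, with a highest fold of 7.71, and WT replicate 2 had none, so the WT replicates did not match each other here.

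The Setd group had 3 and 1 regions in cKO replicates 1 and 2 and 8 and 12 in WT replicates 1 and 2. Setd5, linked to intellectual disability in humans, had 6.73 and 11.7 in WT replicates 1 and 2 at chr6:113099485-113100137 in its body, with 0 regions in both cKO lists. Setd7 encodes an H3K4 monomethyltransferase, and its regions in both cKO lists and in WT replicate 1 all lay near the start of the gene. WT replicate 2 had 6 regions, of which 3 lay 15798 to 35855 bp from the start site. A WT-only region at chr3:51561380-51561964 had 6.54 and 5.80 in WT replicates 1 and 2, with a cKO region 627 bp away. The neighbouring WT region, chr3:51560740-51561032, had 6.27 and 5.77 in WT replicates 1 and 2 and touched a 4.24-fold region of cKO replicate 1. Both cKO lists shared a region at chr3:51560123-51560753 with 4.24 and 4.46 in cKO replicates 1 and 2. With an overlap of 50% of the shorter region required, Setd7 had 2 WT-only regions in place of 1. The H3K9 methyltransferase genes Setdb1 and Setdb2 had no region in any list.

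Among the erasers, deacetylase genes of the Hdac group had 2 and 1 regions in cKO replicates 1 and 2 and 7 and 17 in WT replicates 1 and 2. Most of the WT regions lay at Hdac4 and Hdac9, which encode class IIa deacetylases, shuttling proteins that repress MEF2 targets. Both genes had 0 regions in both cKO lists. Hdac4 had 3 and 6 regions in WT replicates 1 and 2, the strongest 28519 bp outside the gene at chr1:92224070-92224846 with 6.33 and 12.9. A second Hdac4 region at the gene end averaged 7.86 ± 2.32. Hdac9, the longest member, had 2 and 7 regions in the WT replicates. The single Hdac9 region of both WT lists, chr12:34528578-34529203, had 8.37 and 12.1 in WT replicates 1 and 2 and its summit lay 3 bp from a start site listed inside the gene, 388209 bp from the nearer gene end. The class I genes Hdac1 and Hdac3 had no region in any list, and Hdac2 had 1 in cKO replicate 2.

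Demethylase genes of the Kdm group had 6 and 2 regions in cKO replicates 1 and 2 and 5 and 13 in WT replicates 1 and 2, so cKO replicate 1 was not below WT replicate 1. WT-only regions lay at 3 of 18 Kdm genes (16.7%), 1 each, which is near the 16.6% of all genes. Kdm4b, an H3K9 demethylase gene, had 6.16 and 7.91 in WT replicates 1 and 2 in its body at chr17:56380213-56380654, and 0 regions in both cKO lists. The others, at Kdm4a and Kdm7a, were named after their values were seen and averaged 5.25 ± 0.0310 and 6.05 ± 0.0392.

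Kdm3b, another H3K9 demethylase gene, had the highest cKO fold of any of the 71 genes. At its lower-numbered end, on chr18:34776693-34777452, the fold was 17.4 and 16.2 in cKO replicates 1 and 2, against 8.31 and 6.32 in WT replicates 1 and 2. The pileup behind these folds was 81 and 73 reads in the cKO replicates and 18 and 20 in the WT replicates. Both cKO folds lay above both WT folds, but folds of separately called libraries describe peaks and do not measure a change between genotypes.

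The Sirt group had 1 and 4 regions in cKO replicates 1 and 2 and 4 and 2 in WT replicates 1 and 2. Sirt4, a mitochondrial sirtuin gene, had 1 and 1 in the cKO replicates and 3 and 2 in the WT replicates, all at a gene end. The site at chr5:115490461-115490864, 1374 bp from the next gene, Pxn, was in all 4 lists, with 5.15 and 8.03 in cKO replicates 1 and 2 and 6.99 and 10.03 in WT replicates 1 and 2. The values of the genotypes overlapped. A WT-only region at chr5:115489812-115490041 averaged 5.24 ± 0.397 and lay 445 bp from a cKO region.

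**Figure D3:**
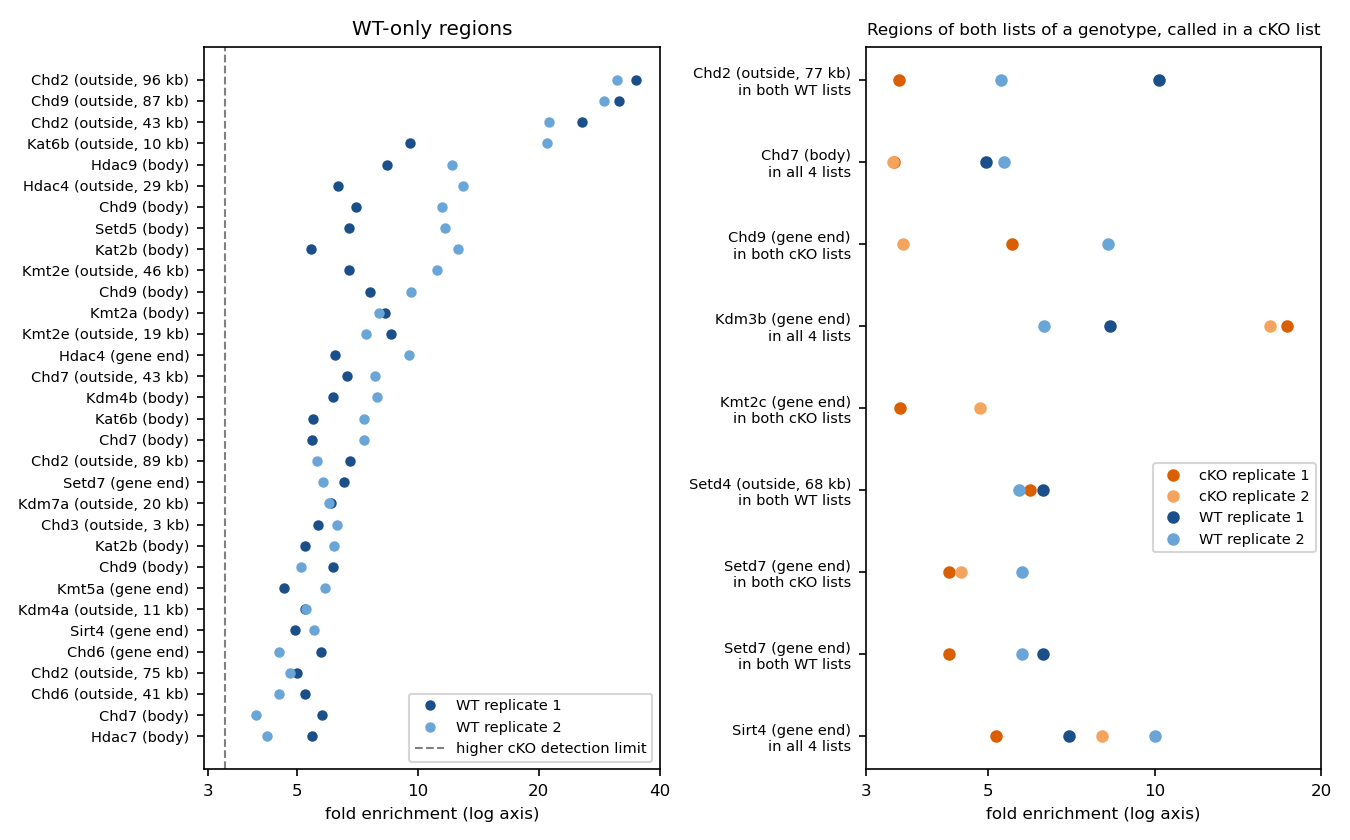
Fold enrichment of the member regions found in both lists of a genotype, on log axes. On the left are the 32 WT-only regions with 1 point per WT replicate and a dashed line at the higher of the detection limits of the cKO lists; on the right are the replicated regions that a cKO list held, with 1 point per list that called them. The Chd2 regions that averaged 33.2 and 23.5 and the Chd9 region that averaged 30.4, all outside the genes, stand above the others on the left. The cKO points of Kdm3b lie above 15 on the right.

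Both cKO lists shared 6 regions at 6 members (Kdm3b, Sirt4, Chd9, Setd7, Kmt2c and Chd7), where 6.83% of all genes had one, and 5 of the 6 were at a gene end, where 39.7% of such regions of all genes were. Among peaks with −log10 q of at least 5, 2 such regions were left. Of the 32 WT-only regions, 5 were at a gene end (15.6%), 13 elsewhere in a gene body (40.6%) and 14 outside the gene (43.8%). Over all genes, WT-only regions split into 6.92% at gene ends, 58.8% in gene bodies and 34.3% outside. Another 6 regions of both WT lists were also in a cKO list, at 6 genes, where 3.22% of all genes had one. By library, gene ends took 46.4% and 53.3% of the member regions in cKO replicates 1 and 2 (13 of 28 and 8 of 15), against 31.1% and 13.9% in WT replicates 1 and 2 (19 of 61 and 15 of 108). The shares did not overlap (49.9 ± 4.88% in cKO and 22.5 ± 12.2% in WT; exact permutation p = 0.333). Over all genes the gene-end share was 42.0% and 42.2% in cKO and 12.4% and 11.97% in WT, so WT replicate 1 was the list in which members stood farthest from all genes. In number, gene-end regions at members were 13 and 8 in cKO and 19 and 15 in WT, and 11 and 8 in cKO against 0 and 0 in WT in the equal-length lists. The gene-end share of all genes was not counted in the equal-length lists. In the full lists, 9 of 13 and 6 of 8 in cKO replicates 1 and 2 lay within 1 kb of a listed start site. In WT replicates 1 and 2 it was 11 of 19 and 9 of 15, and some members had no listed start.

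**Figure D4:**
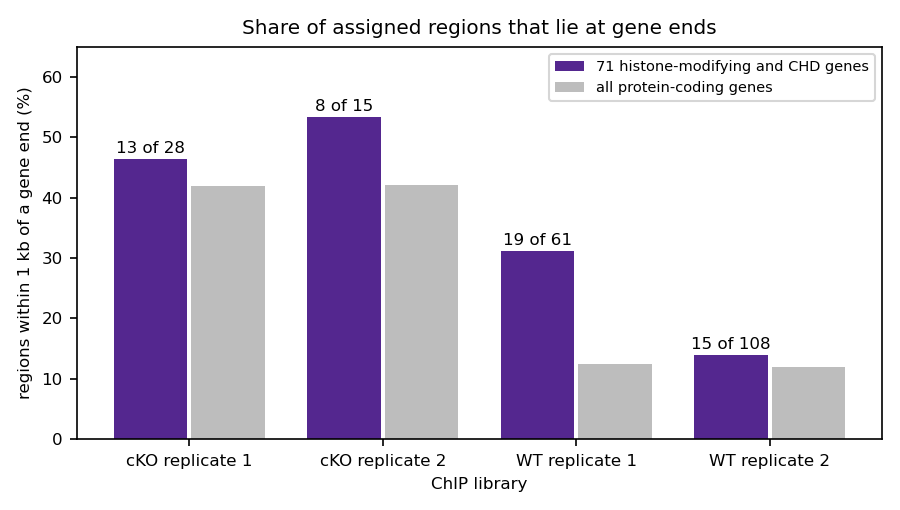
Share of assigned regions whose summit lies within 1 kb of a gene end, in each ChIP library, for the 71 genes and for all protein-coding genes. Bars give percent, and the counts are printed over the bars of the 71 genes. The cKO bars stand at 42.0% to 53.3% and the WT bars at 11.97% to 31.1%.

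The promoter sequences of 4 members are shown because regions shared by the replicates of a genotype overlapped them. They are the 250 bases before a RefSeq start site (GRCm38.p6), 5′ to 3′ on the gene's strand, and capitals mark the motifs searched. The Hdac9 window, chr12:34528890-34529139 on the minus strand, is the internal start site under the WT-only region. The Kmt5a window, chr5:124439680-124439929 on the plus strand, belongs to the H4K20 monomethyltransferase gene, which had a WT-only region of 4.64 and 5.86 in WT replicates 1 and 2. The Setd7 window, chr3:51560824-51561073 on the minus strand, held the WT region that cKO replicate 1 touched. The Chd9 window, chr8:90828585-90828834 on the plus strand, held the region of both cKO lists.
Hdac9: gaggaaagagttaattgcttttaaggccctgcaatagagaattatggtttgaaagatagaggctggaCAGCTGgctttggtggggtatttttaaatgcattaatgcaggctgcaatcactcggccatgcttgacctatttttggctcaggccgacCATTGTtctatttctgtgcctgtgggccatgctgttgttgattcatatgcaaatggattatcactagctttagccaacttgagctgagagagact
Kmt5a: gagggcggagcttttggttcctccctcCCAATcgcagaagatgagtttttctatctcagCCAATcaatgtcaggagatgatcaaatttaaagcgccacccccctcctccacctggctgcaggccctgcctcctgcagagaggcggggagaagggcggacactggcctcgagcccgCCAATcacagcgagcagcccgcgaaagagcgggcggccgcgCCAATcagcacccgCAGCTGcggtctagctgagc
Setd7: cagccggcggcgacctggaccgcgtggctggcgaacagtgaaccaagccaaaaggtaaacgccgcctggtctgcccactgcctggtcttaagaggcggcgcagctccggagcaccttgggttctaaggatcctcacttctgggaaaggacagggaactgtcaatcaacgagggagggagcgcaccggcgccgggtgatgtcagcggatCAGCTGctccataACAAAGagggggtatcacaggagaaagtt
Chd9: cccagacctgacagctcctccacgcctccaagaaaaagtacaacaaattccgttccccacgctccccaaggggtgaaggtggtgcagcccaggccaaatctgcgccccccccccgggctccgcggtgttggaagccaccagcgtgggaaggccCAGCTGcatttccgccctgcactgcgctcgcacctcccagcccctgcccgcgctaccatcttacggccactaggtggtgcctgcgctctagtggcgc

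Of the 4 printed windows, Hdac9 had the lowest GC content, although the Kat2b window, which overlapped a cKO replicate 1 region, was lower at 40.8%. The Hdac9 window had 43.6% G and C and 2 CG dinucleotides, against 62.0% and 16 for Kmt5a, 60.4% and 17 for Setd7, and 66.0% and 16 for Chd9. CAGCTG, an E-box, was found in all 4, a SOX motif in Hdac9 and Setd7, and CCAAT in Kmt5a.

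Of the 71 genes, 55 had entries in the promoter table, with 78 windows of 300 bases. A region of any list overlapped 18 of these windows (23.1%), where 14.6% of the 21263 windows of all protein-coding genes had one. Motifs were searched on both strands as SOX (ACAATG or ACAAAG), E-box (CAGCTG or CAGATG), NFI (TTGGCA), CRE (TGACGTCA), NRF1 (GCGCATGC), CCAAT, RFX (GTTGCC) and ETS (CCGGAAG). The NFI letters can overlap CCAAT and the RFX letters. SOX letters were in 7 of the 18 windows (38.9%), against 28.2% of the 78 member windows and 25.7% of all windows. E-box letters were in 6 (33.3%), against 24.4% of member windows and 27.9% of all windows. NFI letters were in 3 (16.7%), against 12.8% of member windows and 13.1% of all windows. RFX letters were in 3 (16.7%), below the 25.6% of member windows and above the 12.6% of all windows. CCAAT was in 5 (27.8%), against 43.6% of member windows and 38.2% of all windows. ETS letters were in 0 of the 18, against 16.7% of member windows and 11.6% of all windows. NRF1 letters were in 0, against 2.56% and 3.52%, and CRE letters were in 0 of the 78 member windows, against 2.23% of all windows. The set planned for the motif search was the 29 windows of members with a gene-end region. There, SOX letters were in 31.0%, E-box letters in 27.6% and NFI letters in 10.3%. RFX letters were in 13.8%, CCAAT in 34.5% and ETS letters in 0 of the 29. The 18 windows pool both genotypes and regions of single lists, as do the 29. Over all genes, SOX letters were in 30.1% of windows with a WT-only region and 17.7% of windows with a region of both cKO lists. For ETS letters these shares were 7.84% and 22.9%. With 18 or 29 windows the member shares are descriptions, and a match is not a binding site.

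In each library, the share of member regions found again in the other replicate was below that of the whole list. Of the member regions, 21.4% of cKO replicate 1 (Wilson 95% interval 10.2 to 39.5) and 40% of cKO replicate 2 (19.8 to 64.3) were in the other cKO list, where 38.0% and 56.3% of the whole lists were. In WT, 63.9% of replicate 1 (51.4 to 74.8) and 37.0% of replicate 2 (28.5 to 46.4) were in the other WT list, where 78.2% and 38.7% of the whole lists were. The interval for WT replicate 1 lay below its whole-list share, but the intervals treat regions as independent. Regions shared genes: of the 61 member regions of WT replicate 1, Chd2 and Chd7 held 6 each. No test against the whole lists was made. The intervals cover counting error alone.

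The reads behind the WT-only regions were few for most of them. The summit pileup, the number of overlapping sequenced fragments, was 9 to 71 in WT replicate 1 with a median of 13, and 13 to 129 in WT replicate 2 with a median of 23. At the median local background, the smallest fold that could be called was 3.18 and 3.30 in cKO replicates 1 and 2. In WT replicates 1 and 2 this limit was 3.53 and 3.01. The lowest local background of a list was 2.95 and 2.52 reads in cKO replicates 1 and 2. It was 0.777 and 1.78 reads in WT replicates 1 and 2. In all 32 WT-only regions the lower WT fold was above both cKO limits. The limit of WT replicate 1 was itself above both, so this count was partly set in advance. Divided by 2, the lower WT fold was above both cKO limits in 12 of 32 (37.5%). For the other 20 regions, 50% of the lower WT fold was below the median-background limit of at least 1 cKO library. The cKO background at these places is not known, and the cKO lists held folds down to 1.75 and 1.95. Whether such a signal would have been missed was not tested. A cKO region lay within 1 kb of 3 of the 32 and within 10 kb of 7.

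Other chromatin genes were looked at for comparison, in a list of 53 that holds Polycomb, COMPASS, NuRD, SWI/SNF and corepressor genes, H3K9 methyltransferase genes outside the symbol rule, and other modifiers and readers. They had 15 and 14 regions in cKO replicates 1 and 2 and 52 and 88 in WT replicates 1 and 2, and 14 of the 53 (26.4%) had a WT-only region, where 16.6% of all genes had one. The genes of this list were long, with a median length of 64.997 kb and a median of 95.9 kb of genome nearest to them, against 45.8 kb nearest to all genes. The highest was in the body of Jarid2, a Polycomb cofactor gene, with 18.998 and 28.8 in WT replicates 1 and 2, and Jarid2 had 5 WT-only regions. Next came Eed, a core Polycomb gene, with 15.4 ± 9.22 at a site 58541 bp outside the gene, Arid1b of the SWI/SNF complex with 11.5 ± 2.85, and the acetyltransferase gene Ep300 with 9.58 ± 3.17. Ehmt1, the gene of a PRDM16 partner, had no region in any of the 4 lists. Of the CtBP genes, Ctbp2 had 1 and 1 regions in cKO replicates 1 and 2 and 3 and 6 in WT replicates 1 and 2. Among them were 2 WT-only regions and 1 region of both cKO lists that no WT list held. Ctbp1 had 0 and 2 in the cKO replicates and 0 in both WT lists.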

How the data were processed

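PRDM16 ChIP-seq peak lists of 4 libraries were used, and input libraries were not analysed here. MACS2 2.1.1, Bowtie2 2.2.8, cutadapt and FastQC are listed with mm10 in the submitters' processing notes, and settings are not given in the sources used here. The authors deposited 1 list per library, so replicates were not pooled. The fold enrichment in the deposited lists was taken as the summit pileup plus 1 over the local background plus 1. It is therefore below the plain ratio of the summit pileup to the background. The deposited significance is −log10 of the p-value and of the q-value. The deposited integer score was not used.

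Lines on unplaced contigs were dropped, which removed 37, 19, 12 and 14 in cKO replicates 1 and 2 and WT replicates 1 and 2. Overlap meant at least 1 bp. A summit inside several genes counted for each. Summit pileup and background were solved together from fold and p-value. Summits past a −log10 p of 250 were not solved, 5 in WT replicate 1 and 32 in WT replicate 2. Of the other summits, 99.887% to 99.957% per library gave a whole number within 0.0001 of the listed −log10 p. The detection limit is the smallest fold that a library could call at its median background, given its weakest listed p-value. Lists carry no read totals. Library values were compared with exact permutation tests, two-sided; no label says that libraries came from separate embryos, so p-values measure the spread between libraries. Steps were tested on simulated data. Python 3.11.15, numpy 2.4.6, pandas 2.3.3 and scipy 1.17.1 were used. Alternatives are in the closing section.

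The members and gene lists were chosen with earlier results of these data known. Named genes are the 12 members with the highest WT-only region, members with a region of both cKO lists, the 3 with most WT-only regions, the member with most regions in each symbol group, and, of the other chromatin genes, the 4 highest and Ehmt1. Other members are named where a count of genes is spelled out or a paralogue is mentioned, after their values were seen. The CtBP genes were also named after their values were seen. Regions away from listed promoters have no sequence here, as a genome was not used.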

Additional observations from a re-analysis of the deposited data

How the results depend on the processing

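With the replicate number as a block, the differences between cKO and WT were unchanged by construction: −63 regions at members, −15.5 members with a region, −6.5 gene-end regions, 27.4 percentage points in the gene-end share and 0.128 points in the share of a list at members. Each then had an exact two-sided permutation p of 0.5, the smallest that 2 pairs allow. Same-numbered libraries did not deviate together (correlation −0.00436 over 9610 genes), so the numbers were not taken as pairs. Lists of equal length reversed the difference in regions (8.5 more in cKO), in members with a region (8.5 more) and in gene-end regions (9.5 more), and left 4 WT-only regions at 3 members and WT-only regions at 3 of the other chromatin genes. Under that setting 4.99% of all genes had a WT-only region, against 4.23% of the members. An assignment limit of 10 kb left 19 WT-only regions, since distant ones drop out. Settings for gene-end counts and for the other chromatin genes were added after seeing the data. A −log10 q of at least 5 left 2 regions of both cKO lists.

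Leaving out 1 library moved WT-only regions between 32 and 95, members with one between 19 and 33, other chromatin genes between 14 and 22, and regions of both cKO lists, then of a single list, between 6 and 28. The extremes came without WT replicate 1 (95 and 33) and without cKO replicate 2 (28); without WT replicate 2 there were 55 WT-only regions, and without cKO replicate 1 there were 15 cKO regions. With 1 list left, no match between replicates is asked for, so more regions count by construction. Of the values that answer a comparison, 69 kept their direction or stayed within 1.5 times, 11 moved and 3 reversed. For single genes 94 stayed and 41 moved. The kept values include the replicate block, which cannot change a difference, and 1 gene per summit, which changed no value. These counts are therefore not a measure of stability. The limits are 2 libraries a genotype, no read totals, and genes assigned by distance.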
